A study of Mus musculus with 6 samples.

Results

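The levels of 10 glycolysis genes were followed through the T cells, macrophages and keratinocytes of mouse skin by single-cell RNA sequencing. The genes are the glucose transporter Slc2a1, the hexokinase gene Hk2, and Gapdh, Aldoa, Pgk1, Pgam1, Eno1, Tpi1, Pkm and Ldha. Each has a column in all 6 libraries, which the rule for members required. They are 10 of the 16150 gene symbols measured. The 6 mice, of the NINJA strain and aged 6 to 12 weeks, were 2 labelled NO_AG (antigen off), 2 labelled AG (antigen on) and 2 labelled AG_CPI (antigen on with CPI, an abbreviation the labels do not spell out). In all 6 mice the sampled skin was the area treated with 4-OH-Tam, and each mouse gave 1 library with a 10x Genomics 5′ kit. Before sequencing, the submitters examined every mouse for visible disease of the skin and for P14 cells, CD8 T cells with a transgenic antigen receptor, in it. The labels give no sex, batch or date, and nothing further on the strain's alleles.

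Glycolysis splits glucose into pyruvate in the cytosol and yields ATP with or without oxygen. Slc2a1 encodes the transporter GLUT1, which lets glucose into the cell, and Hk2 encodes a hexokinase that traps it by phosphorylation. Aldoa, Tpi1, Gapdh, Pgk1, Pgam1, Eno1 and Pkm encode the enzymes of the later steps (aldolase, triosephosphate isomerase, glyceraldehyde-3-phosphate dehydrogenase, phosphoglycerate kinase, phosphoglycerate mutase, enolase and pyruvate kinase), and Ldha encodes a lactate dehydrogenase subunit that turns pyruvate into lactate. Activated T cells and inflammatory macrophages are known for a high rate of glycolysis, and the basal layer of the epidermis is known for GLUT1. The transcription factor HIF-1 induces many of these genes when oxygen is low and binds the core letters ACGTG or GCGTG.

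On mouse build GRCm38 the annotation places Slc2a1 at chr4:119108711-119137983 and Eno1 on the same chromosome at chr4:150236721-150248879. Hk2 (chr6:82725025-82774454), Gapdh (chr6:125161715-125166467) and Tpi1 (chr6:124810586-124814296) lie on chromosome 6, and Ldha (chr7:46841475-46855627) and Aldoa (chr7:126795234-126800751) on chromosome 7. Pkm is at chr9:59656368-59679375, Pgam1 at chr19:41911923-41918660 and Pgk1 at chrX:106187100-106203699. The RefSeq promoter windows of the same build, 250 bases before to 50 after a gene's start, were searched for ACGTG and GCGTG on both strands (CACGT and CACGC as printed); matches may overlap. All 10 members had a window, and 9 of them, Tpi1 being the exception, held at least 1 match in 13 of 16 windows. Of all 32851 windows in the table, 43.8% held a match, so a match is a common feature and no evidence of binding. The 250 bases before a RefSeq start are shown for the first and last steps of the pathway, Slc2a1, Hk2 and Ldha, because they are the entry and the exit of the pathway and their levels had different orders across cell classes; capitals mark the matches, each printed 5′ to 3′ along the gene's own strand.
Slc2a1, chr4:119108495-119108744, plus strand: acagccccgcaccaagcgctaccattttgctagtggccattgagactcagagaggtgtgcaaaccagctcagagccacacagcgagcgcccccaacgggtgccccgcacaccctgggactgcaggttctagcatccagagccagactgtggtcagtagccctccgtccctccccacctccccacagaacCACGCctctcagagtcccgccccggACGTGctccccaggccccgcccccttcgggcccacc
Hk2, chr6:82774455-82774704, minus strand: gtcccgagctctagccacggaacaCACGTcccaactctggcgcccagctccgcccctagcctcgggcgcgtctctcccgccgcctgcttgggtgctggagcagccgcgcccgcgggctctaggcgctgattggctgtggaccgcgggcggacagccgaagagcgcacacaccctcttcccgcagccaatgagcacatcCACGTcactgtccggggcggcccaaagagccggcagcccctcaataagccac
Ldha, chr7:46845554-46845803, plus strand: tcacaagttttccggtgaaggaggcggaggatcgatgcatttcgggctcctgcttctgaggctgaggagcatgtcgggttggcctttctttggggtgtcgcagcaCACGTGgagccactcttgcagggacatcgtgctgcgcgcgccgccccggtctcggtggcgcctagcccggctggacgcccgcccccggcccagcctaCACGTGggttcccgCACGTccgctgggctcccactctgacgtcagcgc
The Slc2a1 and Hk2 stretches each hold 2 matches. The Ldha stretch holds 5: each of its 2 palindromes CACGTG counts on both strands, and 1 further CACGT follows. Ldha has a pair of RefSeq windows, both inside the gene's annotated span and downstream of its first annotated base; the first of them is shown, and the stretch before the other start holds 1 match.

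The libraries held 1736 to 4972 cells and 5903724 to 24656382 UMIs (counted RNA molecules), with a median of 2527 to 4744 UMIs per cell, and pairs of libraries shared 5 to 35 cell barcodes. Cells were clustered without the 10 members, and the names of the clusters rest on markers alone. Inside the alpha-beta T cell clusters, the T cell classes were also gated cell by cell. CD8 T cells were gated on a Cd8a or Cd8b1 UMI. Regulatory T-like cells needed Foxp3 and CD4 T-like cells Cd4. Cells with either CD8 gene were kept out of these classes, and cells with Foxp3 out of the CD4 T-like class. Every class but CD8 T cells is called "-like". A class was used in a mouse only with at least 20 cells. CD8 T cells numbered 127 and 387 (NO_AG mice), 974 and 767 (AG mice) and 1118 and 1209 (AG_CPI mice). Keratinocyte-like cells went the other way, with 2212 and 1714 (NO_AG mice), 1071 and 1735 (AG mice) and 189 and 167 (AG_CPI mice). Macrophage-like cells were scarce in NO_AG (7 and 3) and numbered 161, 532, 236 and 202 in the other mice, so they have no NO_AG level. The level of a gene is its mean number of UMIs per 10000 UMIs of the cell, over the cells of a class in 1 mouse. Fold changes are differences on log2(level + 0.1), tested with limma and adjusted by Benjamini-Hochberg over all genes past the filter; a gene is called at an adjusted p below 0.05.

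Slc2a1 was highest in the basal state of the interfollicular keratinocytes. Its level in basal-like interfollicular keratinocytes was 1.44 (NO_AG 1), 1.66 (NO_AG 2) and 2.05 (AG 1) (the other mice had too few of these cells), the top of the 13 classes by median. Cycling (median 1.38) and stress keratin-like keratinocytes (1.32) came next, and their ranges over mice overlapped that of the basal-like cells. CD8 T cells stood 12th of 13, at 0.387 and 0.398 (NO_AG mice), 0.402 and 0.237 (AG mice) and 0.349 and 0.258 (AG_CPI mice). The highest CD8 T cell level lay below the lowest level of all keratinocyte-like cells pooled, 0.852. Bulge and germ-like hair follicle keratinocytes were lowest, with a median of 0.201 (0.107 to 0.298 over 5 mice).

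Hk2 had another order, led in the median by macrophage-like cells. Their Hk2 level was 0.438 and 0.604 (AG mice) and 0.877 and 0.964 (AG_CPI mice), with a median of 0.74. Stress keratin-like keratinocytes (median 0.578, 2 mice) and dendritic epidermal T-like cells (0.402, 0.0746 to 0.635 over 5 mice) followed, both with ranges that overlapped the macrophage-like range. The ranges of ILC2-like (0.234 to 0.472) and suprabasal-like cells (0.115 to 0.983) overlapped it too. The suprabasal-like level of AG 2, 0.983, lay above every macrophage-like level. The macrophage-like median holds no NO_AG mouse, while those of most other classes do. CD8 T cells had 0.0701 and 0.124 (NO_AG mice), 0.0882 and 0.072 (AG mice) and 0.144 and 0.147 (AG_CPI mice). Regulatory T-like cells had the lowest median, 0.0323 (0.0 to 0.113 over 5 mice). That range rests on few molecules and overlapped those of other classes, among them CD4 T-like (0.0 to 0.299) and CD8 T cells.

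The enzymes of the later steps had their highest medians in macrophage-like and regulatory T-like cells and were low in the hair follicle. Gapdh, Eno1 and Pgam1 were led by macrophage-like cells, with median levels of 25.7, 7.47 and 6.47. The median levels of Aldoa, Pgk1, Pkm, Ldha and Tpi1 were highest in regulatory T-like cells, at 19.9, 10.0, 19.5, 17.6 and 6.98. For each of these 5 genes the ranges of regulatory T-like cells (5 mice) and macrophage-like cells (4 mice) overlapped, so the top places do not differ beyond their spread. Regulatory T-like cells numbered 24 and 22 (NO_AG mice), 160 and 86 (AG mice) and 64 (AG_CPI 2). The regulatory T-like medians include the NO_AG mice, which gave no macrophage-like level: in the AG mice the mean Tpi1 level was 6.13 in regulatory T-like and 7.23 in macrophage-like cells, and in AG_CPI, with 1 mouse for the former, Aldoa (13.1 against 16.7), Pgk1 (5.17 against 6.08), Pkm (13.9 against 15) and Tpi1 (4.91 against 6.13) were lower in regulatory T-like cells. The lowest median belonged to bulge and germ-like keratinocytes for Gapdh (5.46), Aldoa (3.12), Pgk1 (1.47), Eno1 (2.52), Tpi1 (1.85) and Ldha (3.26), and to upper hair follicle-like keratinocytes for Pgam1 (1.78) and Pkm (3.85). Summed over the 10 members, CD8 T cells held 53.0 and 65.8 UMIs per 10000 (NO_AG mice), 72.1 and 49.2 (AG mice) and 56.5 and 54.0 (AG_CPI mice). Keratinocyte-like cells held 28.9 and 32.7, 43.3 and 43.3, and 39.0 and 34.2, and every one of these 6 sums lay below the lowest CD8 T cell sum.

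**Figure D1:**
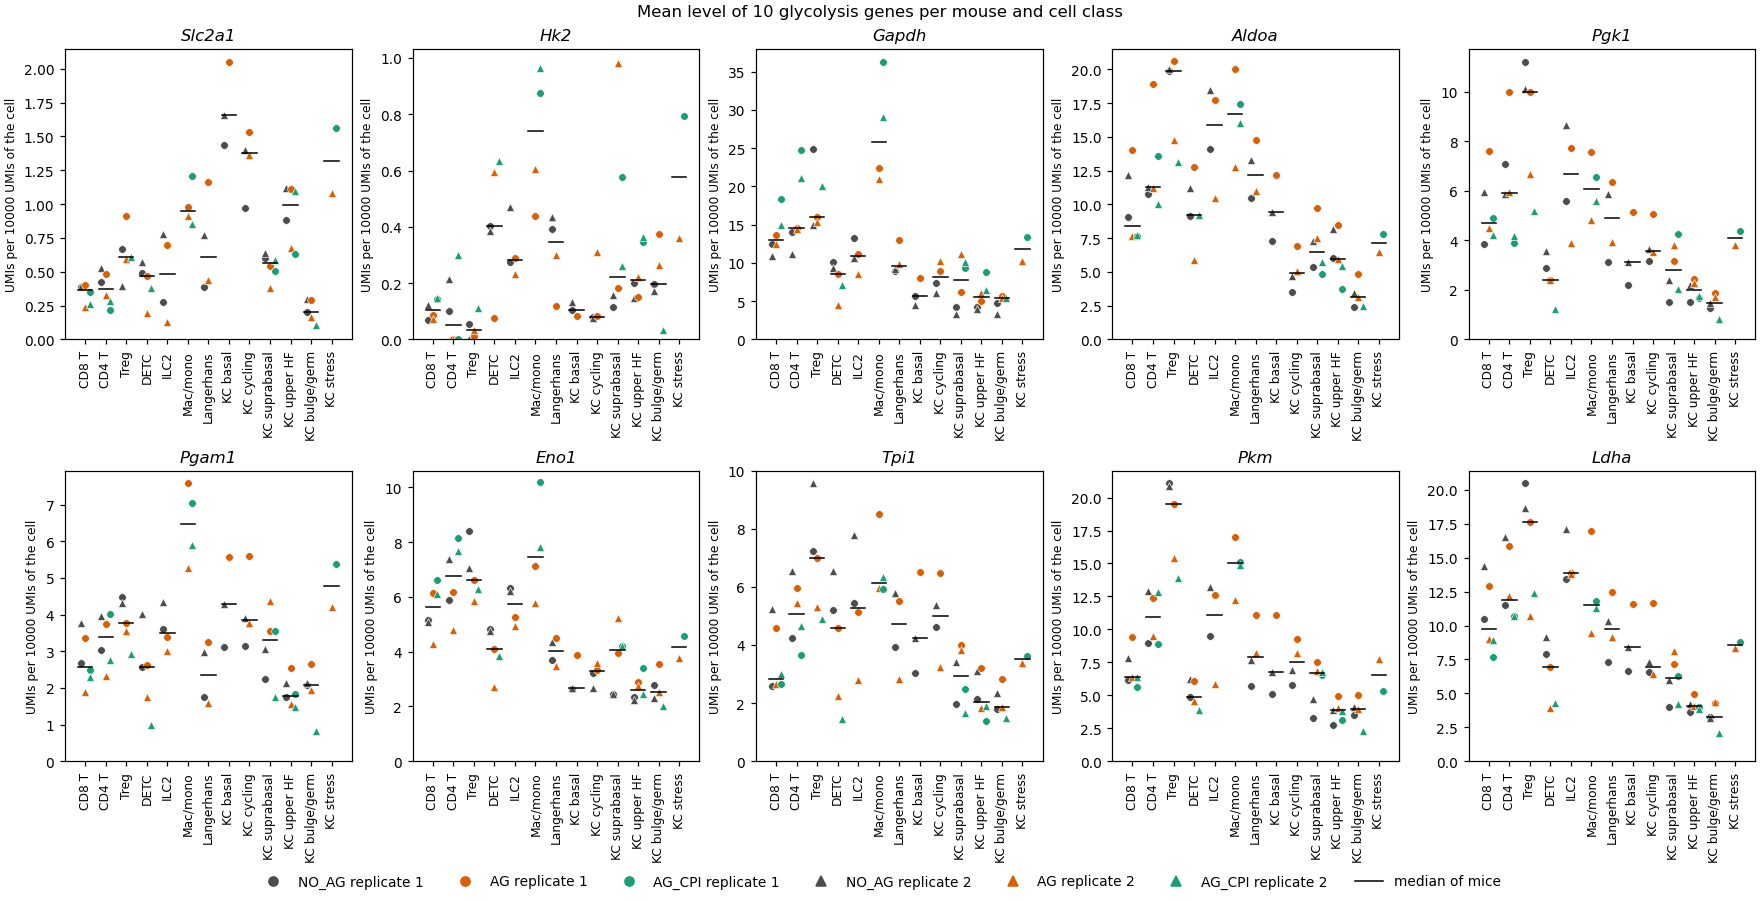
Level of each member (UMIs per 10000 UMIs, 1 panel per gene) by cell class; points are mice and the line is the median over mice. By median, Slc2a1 is highest in basal-like keratinocytes (1.44 to 2.05) and Hk2 in macrophage-like cells (0.438 to 0.964). Aldoa, Pgk1, Pkm, Ldha and Tpi1 have their highest median in regulatory T-like cells. The ranges of these leading classes overlap those of other classes.

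All 10 members were higher in macrophage-like cells than in CD8 T cells of the same mouse after the composition scaling used in the tests, in 4 of 4 mice each. As deposited, Pgk1 in AG 1 was the reverse, at 7.56 against 7.61. The comparison called 61.7% of all genes, so a call by itself is common here, but the median log2 difference was 1.293 over the members and -0.008 over all genes tested. Hk2 differed most: its mean level was 0.721 ± 0.243 (SD, n = 4) in macrophage-like cells and 0.113 ± 0.0383 in CD8 T cells, a log2 difference of 2.15 ± 0.14 (SE, adjusted p = 1.79e-08). Slc2a1 was higher by 1.69 ± 0.12 (adjusted p = 4.8e-08), Pgam1 by 1.68 ± 0.09 (4.95e-09) and Pkm by 1.44. Pgk1 differed least, at 0.56 (adjusted p = 0.000402). With the deposited scaling alone, without the composition factor, the median of all genes moved to -0.249 and the called genes from 2584 higher and 2375 lower to 1859 and 3585. On that scale the 10 differences ran from 0.225 for Pgk1, which was no longer called, to 1.92 for Hk2.

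CD8 T cells and basal-like keratinocytes of the same 3 mice differed at both ends of the pathway. This comparison called 51.5% of all genes and 7 of the 10 members, 5 of them higher in CD8 T cells. Slc2a1 was lower in CD8 T cells in 3 of 3 mice, with a mean level of 0.396 against 1.72 and a log2 difference of -1.85 ± 0.16 (limma, adjusted p = 1.75e-07). Pgam1 was also lower (-0.36, adjusted p = 0.0309). Gapdh was higher in CD8 T cells by 1.05 ± 0.12 (adjusted p = 2.33e-06), followed by Eno1 (0.83), Pgk1 (0.75), Ldha (0.53, adjusted p = 0.00166) and Aldoa (0.30, adjusted p = 0.0298), each in 3 of 3 mice. Aldoa was no longer called without NO_AG 1, without NO_AG 2 or with no filter, nor Pgam1 without NO_AG 1 or without NO_AG 2. Hk2 (-0.09), Tpi1 (-0.13) and Pkm (0.09) were not called. The median was 0.195 over the members and -0.003 over all genes. In these mice 78.7% (NO_AG 1), 77.8% (NO_AG 2) and 39.7% (AG 1) of the CD8 T cells came from a cluster led by Gzmc, Ifng and Xcl1. In the AG_CPI mice that cluster gave 4.2% and 4.8% of them. The comparison with basal-like keratinocytes was not run without that cluster.

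Within the interfollicular epidermis, 7 members were lower in suprabasal-like than in basal-like keratinocytes, in a comparison that called 20.2% of all genes. Slc2a1 had the largest difference: 0.605, 0.635 and 0.540 in suprabasal-like cells of NO_AG 1, NO_AG 2 and AG 1, against 1.44, 1.66 and 2.05 in basal-like cells of the same mice (log2 difference -1.25 ± 0.15, limma, adjusted p = 7.68e-05). Ldha (-0.49, adjusted p = 0.00151), Pkm (-0.43, 0.00278), Tpi1 (-0.40, 0.0159), Pgk1 (-0.39, 0.0195), Pgam1 (-0.39, 0.0115) and Gapdh (-0.28, 0.0383) were lower too. Hk2 (0.36, adjusted p = 0.276), Eno1 (0.06, 0.723) and Aldoa (-0.24, 0.051) were not called, and Aldoa was called in 5 of 9 alternatives, at -0.377 under the deposited scaling, which moved the median of all genes from 0.011 to -0.09 and the called genes from 827 higher and 762 lower to 628 and 1047. The median over the members was -0.39. Without NO_AG 1 only 3 members were called, beside 13.4% of all genes, with Gapdh, Pgam1, Pgk1 and Tpi1 lost; Gapdh was also lost without NO_AG 2, and Gapdh and Tpi1 with no filter. Without AG 1, 8 were called beside 26.0%.

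Cycling-like keratinocytes differed from basal-like ones mainly in aldolase. Aldoa had a level of 3.48, 4.73 and 6.89 in cycling-like cells of NO_AG 1, NO_AG 2 and AG 1, against 7.28, 9.40 and 12.2 in basal-like cells (log2 difference -0.998 ± 0.09, limma, adjusted p = 6.74e-06). Slc2a1 was lower (-0.43, adjusted p = 0.0185) and Gapdh higher (0.26, adjusted p = 0.0464). These were the 3 members called, beside 23.5% of all genes, with medians of -0.08 over the members and -0.025 over all genes. Without NO_AG 1 only 1 member was called, beside 16.7% of all genes, and without AG 1 it was 6, beside 33.3%. Gapdh lost its call in 4 of 9 alternatives and Slc2a1 in 1. Stress keratin-like keratinocytes could not be compared with basal-like ones, because no mouse had 20 cells of both.

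**Figure D2:**
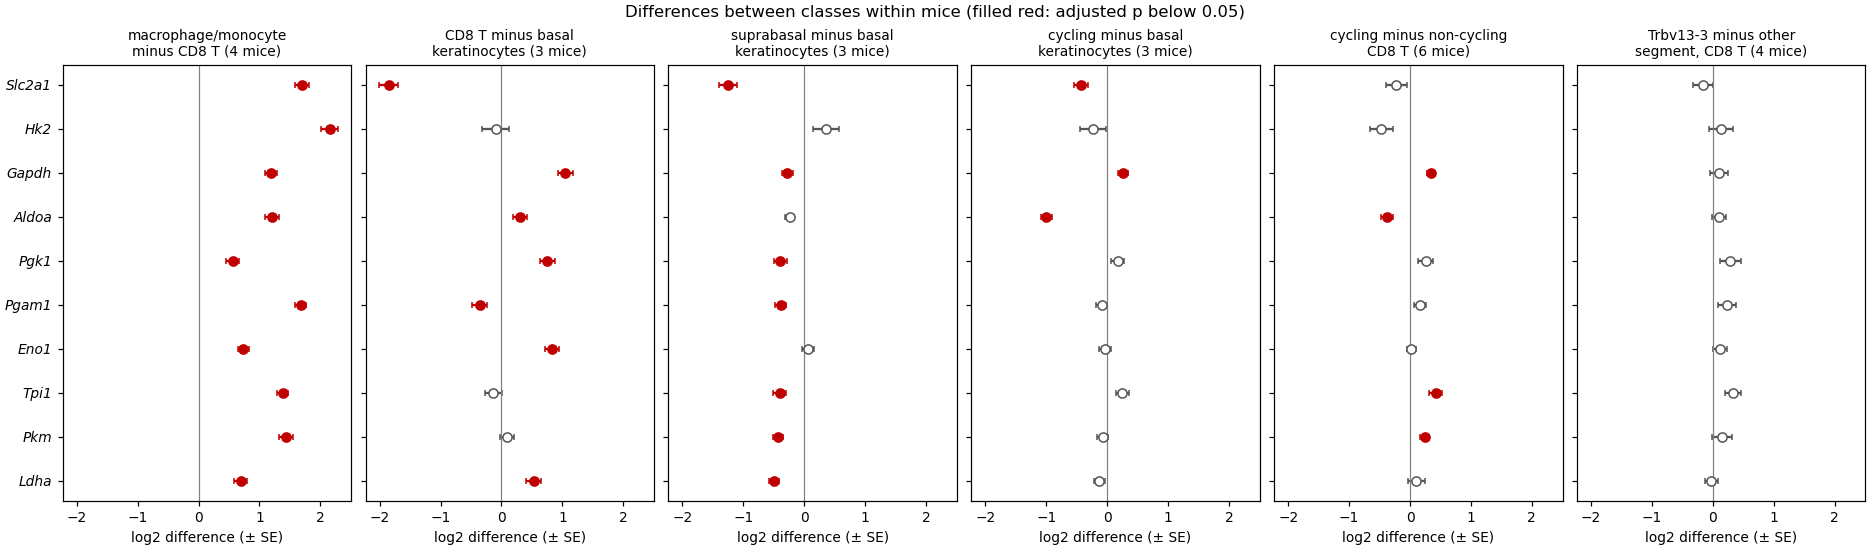
Log2 difference in level between 2 classes of the same mice for each member (points with SE bars; filled red where the adjusted p is below 0.05), 1 panel per comparison. All 10 members are higher in macrophage-like than in CD8 T cells, and Slc2a1 (-1.85) lies on the opposite side from Gapdh (1.05) between CD8 T cells and basal-like keratinocytes.

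No member was called between any 2 of the 3 groups in CD8 T cells. The comparison of AG with NO_AG called 2.93% of all genes and 0 of the 10 members in limma, with 0 at an unadjusted p below 0.05. The Aldoa level in CD8 T cells was 9.06 and 12.2 (NO_AG mice), 14 and 7.63 (AG mice) and 7.63 and 7.75 (AG_CPI mice). Among the NO_AG and AG mice, the 2 AG mice thus had the highest and the lowest Aldoa level. The ranges of NO_AG and AG overlapped for 9 of the 10 members. Overlap was judged here and below on levels after the composition scaling used in the tests, which can part from the levels printed. Gapdh alone did not overlap, with levels of 12.5 and 10.9 in NO_AG and 13.6 and 12.5 in AG (log2 difference 0.25 ± 0.15, adjusted p = 0.444), where 22.5% of all genes lay wholly higher in AG, and under the deposited scaling it overlapped too. The median over the members was 0.045, against 0.004 over all genes, and its sign rested on single mice: -0.249 without AG 1, 0.330 without AG 2 and -0.156 without NO_AG 1.

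Under CPI the Gapdh level in CD8 T cells was 18.4 and 14.9, above all 4 other mice, while Ldha was 7.69 and 8.93, below all 4. AG_CPI against NO_AG called 4.16% of all genes and 0 members; 2 members had an unadjusted p below 0.05. These were Gapdh (log2 difference 0.56 ± 0.15, limma, adjusted p = 0.0647) and Ldha (-0.50 ± 0.19, adjusted p = 0.181). Leaving out NO_AG 2 shrank the Ldha difference by over 1.5 times. Gapdh differed by 0.56 to 0.57 without AG 1, without AG 2 or with only the 2 groups compared in the fit. It differed by 0.35 and was not called without the cluster that held most NO_AG cells. Levels did not overlap for 3 members higher in AG_CPI (Gapdh, Eno1 at 0.37 and Hk2 at 0.36) and for 4 lower (Ldha, Aldoa at -0.39, Pgam1 at -0.34 and Slc2a1 at -0.25), beside 24.5% and 25.1% of all genes. Without that cluster Gapdh and Slc2a1 overlapped, Aldoa was at -0.07, and Slc2a1 changed sign, on 18 UMIs in NO_AG. Hk2 then had 0 and 3 UMIs in the NO_AG mice, too few to place it. The median over the members was -0.2 against -0.0 over all genes, and 0.061 without NO_AG 2.

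AG_CPI against AG shares the AG mice with the first comparison and called 0.108% of all genes and 0 members. In CD8 T cells the Hk2 level was 0.0882 and 0.072 in AG and 0.144 and 0.147 in AG_CPI, a log2 difference of 0.44 ± 0.22 (limma, adjusted p = 0.966). Pkm, at 9.42 and 6.40 against 5.59 and 6.36, was the 1 member with an unadjusted p below 0.05 (-0.41, limma, adjusted p = 0.913), and this value was -0.14 without AG 1 and -0.68 without AG 2. Hk2 and Gapdh lay wholly higher and Aldoa, Pkm and Ldha wholly lower in AG_CPI, where 19.3% and 19.9% of all genes did so. The median of the members was -0.221 (all genes -0.009) and turned to 0.137 without AG 1. The CD8 T cells came from different clusters in the 3 groups: 78.7% and 77.8% of them in NO_AG from 1 cluster led by Gzmc, Ifng and Xcl1, 39.7% in AG 1 from that same cluster, 44.6% in AG 2 from another, and 39.7% and 45.6% in AG_CPI from a cluster led by Gzma and Gzmb. The summed level of 11 keratinocyte markers in CD8 T cells was 5.33 to 5.66 (NO_AG mice), 6.36 to 7.19 (AG mice) and 3.44 to 4.06 (AG_CPI mice). Without the first of these clusters, the AG_CPI against NO_AG differences were 0.35 for Gapdh (adjusted p = 0.295), -0.34 for Ldha (0.386), -0.07 for Aldoa, and 0.24 for Slc2a1, which thus changed sign. In the same run, AG against NO_AG gave 0.47 for Aldoa, against 0.07 with all CD8 T cells. This run leaves 27 and 86 cells in the NO_AG mice, with 3 and 15 UMIs of Slc2a1 and 0 and 3 of Hk2, so no Hk2 difference is given and that of Slc2a1 rests on few molecules. The part of the keratinocyte markers in the member levels was not tested.

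In keratinocyte-like cells all 10 members had a higher mean in AG than in NO_AG, and none was called. Gapdh had a level of 4.97 and 3.97 (NO_AG mice), 6.27 and 9.04 (AG mice) and 10.5 and 8.15 (AG_CPI mice). Hk2 had 0.158 and 0.145, 0.177 and 0.343, and 0.412 and 0.259. Both genes were thus lowest in the 2 NO_AG mice. Pkm had 3.83 and 4.85 (NO_AG mice), 6.72 and 6.69 (AG mice) and 4.64 and 5.25 (AG_CPI mice), so that both AG mice stood above the other 4. AG against NO_AG called 0.484% of all genes and 0 of 10 members, with 5 at an unadjusted p below 0.05 and a median of 0.52 over the members against -0.012 over all genes. The log2 difference was 0.82 ± 0.24 for Gapdh (limma, adjusted p = 0.281), 0.70 ± 0.16 for Pkm (adjusted p = 0.177), 0.70 ± 0.19 for Pgk1 (0.25), 0.54 ± 0.17 for Ldha (0.329) and 0.52 ± 0.16 for Eno1 (0.321). Of the 10 members, 8 lay wholly higher in AG, all but Aldoa and Tpi1, where 23.0% of all genes did so. The all-member median stayed between 0.354 and 0.563 over the alternatives run, with 10 of 10 higher and 0 called in each.

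AG_CPI against NO_AG in keratinocyte-like cells called 0.471% of all genes and 0 members, with 3 at an unadjusted p below 0.05. Gapdh differed by 1.11 ± 0.24 (limma, adjusted p = 0.105), Hk2 by 0.81 ± 0.27 (0.227) and Eno1 by 0.57 ± 0.16 (0.176). Leaving out AG_CPI 1 shrank the Hk2 difference by over 1.5 times. Gapdh, Hk2, Eno1, Pkm and Slc2a1 lay wholly higher in AG_CPI (26.0% of all genes) and Tpi1 (-0.33) and Aldoa (-0.21) wholly lower (27.9%), with medians of 0.236 over the members and -0.016 over all genes. Under the deposited scaling Pkm and Slc2a1 overlapped, and with all epithelial clusters as keratinocytes Pkm, Slc2a1, Tpi1 and Aldoa did. Aldoa had 5.29 and 6.62 (NO_AG mice), 8.70 and 6.01 (AG mice) and 4.61 and 5.12 (AG_CPI mice). AG_CPI against AG called 0.0% of all genes and 0 members, with 4 at an unadjusted p below 0.05: Tpi1 (-0.62 ± 0.21, adjusted p = 0.517), Aldoa (-0.57), Pgam1 (-0.55) and Pkm (-0.44). Single mice moved 3 of these by over 1.5 times: without AG 1 Aldoa was at -0.27 and Tpi1 at -0.38, without AG 2 Aldoa was at -0.86, and Pgam1 was at -0.89 without AG_CPI 1 and -0.21 without AG_CPI 2. Those 4, Pgk1 and Ldha lay wholly lower in AG_CPI, where 17.4% of all genes did so, and the medians were -0.342 and -0.018. The 3 comparisons share mice, so these values are not independent of each other.

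The keratinocyte-like cells of the 6 mice were not the same mixture. In AG 2, 56.9% of them belonged to 1 cluster of stress keratin-like cells with a median of 1949 UMIs, whereas basal-like cells numbered 597 and 362 (NO_AG mice), 53 and 4 (AG mice) and 1 and 1 (AG_CPI mice). The median UMI count of keratinocyte-like cells was 2440 in AG 2 and 3613 to 6821 in the other mice, and the mitochondrial share 6.18% in AG 2, 5.31% in AG_CPI 1 and 3.41% to 3.61% in the other 4. Without that cluster the AG against NO_AG differences were 0.65 for Gapdh, 0.56 for Pgk1, 0.50 for Pkm, 0.46 for Hk2, 0.42 for Eno1, 0.29 for Ldha, 0.28 for Aldoa, 0.26 for Pgam1, 0.09 for Tpi1 and 0.01 for Slc2a1. Pgam1 and Slc2a1 then overlapped between NO_AG and AG, which left 6 members wholly higher in AG, beside 23.2% of all genes. The summed level of 8 T cell markers in keratinocyte-like cells was 0.430 to 0.799 (NO_AG mice), 1.12 to 4.95 (AG mice) and 3.38 to 4.07 (AG_CPI mice). A list of 14 early-response genes summed to 31.0 to 35.6 (NO_AG mice), 14.5 to 21.0 (AG mice) and 17.9 to 18.1 (AG_CPI mice). Epithelial cells outside every named class were left out, as a share of kept cells 16.2% and 14.3% (NO_AG mice), 1.95% and 5.22% (AG mice) and 0.117% and 8.67% (AG_CPI mice). The part of these values in the member differences was not tested.

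Suprabasal-like cells, present in all 6 mice (246 and 201 cells of NO_AG mice, 157 and 25 of AG mice, 30 and 31 of AG_CPI mice), gave a comparison within 1 keratinocyte state. Their median UMI count was 6974 and 7578 (NO_AG mice), 6475 and 4192 (AG mice) and 2234 and 5381 (AG_CPI mice). The mitochondrial share was 5.23% in AG_CPI 1 and 2.92% to 3.73% in the other mice. The part of either in the member differences was not tested. The Gapdh level of suprabasal-like cells was 4.20 and 3.32 (NO_AG mice), 6.16 and 11.1 (AG mice) and 9.34 and 10.1 (AG_CPI mice). Their Hk2 level was 0.115 and 0.157, 0.184 and 0.983, and 0.577 and 0.262, each time lowest in NO_AG. AG against NO_AG called 0.13% of all genes and 0 members, with 5 at an unadjusted p below 0.05: the median was 0.815 over the members and -0.092 over all genes. Hk2 differed by 1.31 ± 0.65 and Gapdh by 1.22 ± 0.32 (limma, adjusted p = 0.395), and Slc2a1 by -0.31; 9 members lay wholly higher in AG, where 19.0% of all genes did so. Without AG 2, whose value rests on 25 cells, these differences were 0.30 for Hk2 and 0.75 for Gapdh, and without AG 1 they were 2.32 and 1.69. AG_CPI against NO_AG called 0.22% of all genes and 0 members, with 3 at an unadjusted p below 0.05, a Gapdh difference of 1.33 ± 0.32 (adjusted p = 0.149) and medians of 0.305 and -0.13; the deposited scaling moved its called genes from 8 higher and 9 lower to 9 and 5. AG_CPI against AG called 0.0% and 0 members, with 2 at an unadjusted p below 0.05: Tpi1 (-1.02) and Aldoa (-0.81), with medians of -0.304 and -0.068. Leaving out AG_CPI 2 shrank this Tpi1 difference by over 1.5 times.

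The hair follicle and cycling states also gave 0 calls among the members. In upper hair follicle-like cells AG against NO_AG called 0.265% of all genes (2 members at an unadjusted p below 0.05 in limma, median 0.158 over the members and -0.012 over all genes), AG_CPI against AG 0.0252% (4 members, -0.299 and -0.024) and AG_CPI against NO_AG 1.26% (4 members, -0.078 and -0.025). The nearest to a call there was Gapdh, higher in AG_CPI than in NO_AG by 0.81 ± 0.19 (adjusted p = 0.0896), and it was called without AG_CPI 2 at 1.03, beside 7.94% of all genes. In bulge and germ-like cells AG against NO_AG called 0.413% of all genes, with 4 members at an unadjusted p below 0.05, medians of 0.38 and -0.013, and Ldha at 0.50 ± 0.13 (adjusted p = 0.447). In cycling-like keratinocytes the same contrast called 0.49% of all genes, with 3 members of 9 tested at an unadjusted p below 0.05 and medians of 0.382 and -0.008. Its calls depended on the AG mouse kept: 7 members beside 10.1% of all genes without AG 2, and 2 beside 20.9% without AG 1.

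**Figure D3:**
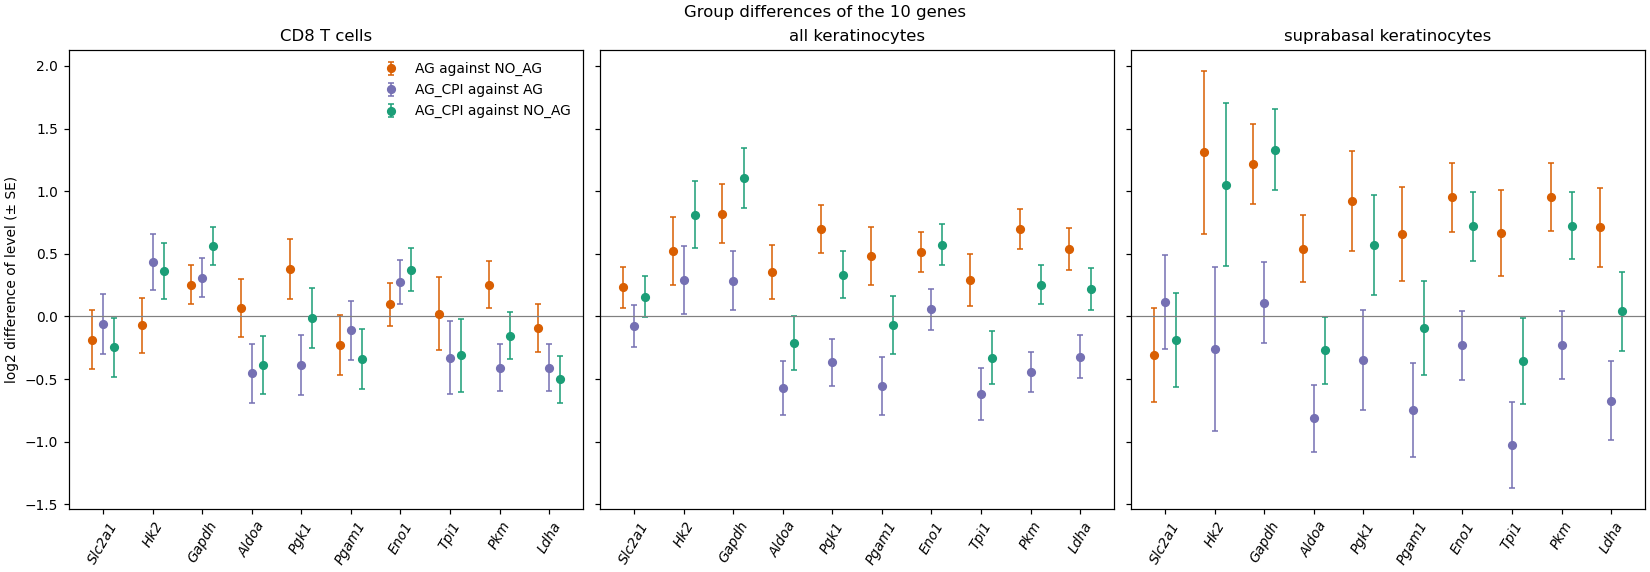
Log2 difference in level between groups (points with SE bars) for each member in CD8 T cells, all keratinocyte-like cells and suprabasal-like cells, for AG minus NO_AG, AG_CPI minus AG and AG_CPI minus NO_AG. No difference passed an adjusted p of 0.05; Gapdh in suprabasal-like cells, at 1.22 and 1.33 against NO_AG, is among the largest.

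The AG against NO_AG difference was lower in CD8 T cells than in keratinocyte-like cells for 10 of 10 members, and the test of this difference of differences called none. It called 0.996% of all genes, with 5 members at an unadjusted p below 0.05 and medians of -0.41 over the members and -0.005 over all genes. The values were -0.69 ± 0.25 for Pgam1 (limma, adjusted p = 0.269), -0.61 for Ldha (0.255) and -0.54 for Gapdh (0.246). Without AG 1, 5 members and 4.37% of all genes were called, among the members Pgam1 at -1.08, Ldha at -0.86, Gapdh at -0.82 and Pkm at -0.65, and without AG 2 none was. For AG_CPI against NO_AG the test called 1.67% of all genes and 0 members, with 3 at an unadjusted p below 0.05 and medians of -0.361 and 0.004. Ldha had -0.71 ± 0.22 (adjusted p = 0.124) and Gapdh -0.53 ± 0.19 (0.188), and both were called without AG 1 (3.85% of all genes called), without AG 2 (4.03%), or with only the 2 groups compared. For AG_CPI against AG it called 0.0156% of all genes and 0 members, 0 of them at an unadjusted p below 0.05, with medians of 0.069 and 0.008.

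Macrophage-like cells had more Hk2 in both AG_CPI mice (0.877 and 0.964) than in both AG mice (0.438 and 0.604). The log2 difference was 0.73 ± 0.23 (limma, adjusted p = 0.26). Gapdh, at 22.4 and 21.0 in AG against 36.3 and 29.1 in AG_CPI, differed by 0.58 ± 0.20 (adjusted p = 0.355), and Eno1, at 7.12 and 5.77 against 10.2 and 7.82, by 0.47 ± 0.21 (0.593). These 3 were the members with an unadjusted p below 0.05 and the 3 that lay wholly higher in AG_CPI, where 18.0% of all genes did so; the comparison called 0.784% of all genes and 0 members, with medians of 0.057 over the members and -0.002 over all genes. The AG mice differed from each other: leaving out AG 2 gave 4 calls beside 6.98% of all genes and a median of -0.257, and leaving out AG 1 gave 2 calls (Gapdh and Eno1) beside 1.81% and a median of 0.359. The summed level of the 11 keratinocyte markers in macrophage-like cells was 4.18 and 8.54 (AG mice) and 3.04 and 3.21 (AG_CPI mice), and their median UMI count was 3527 in AG 2 and 5696.5 to 6885 in the other 3 mice; the part of either in the member levels was not tested.

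In the other T and innate lymphocytes no member was called either. CD4 T-like cells numbered 21 to 99 per mouse and gave 0.0246% of all genes called for AG against NO_AG (0 members at an unadjusted p below 0.05 in limma, medians 0.104 and 0.122). AG_CPI against AG gave 0.0% (3 members, -0.348 and -0.222), where Pgk1 had -1.10 ± 0.29 (adjusted p = 0.766), and -0.73 without AG 1. The AG_CPI levels here rest on 21 and 24 cells. AG_CPI against NO_AG gave 0.123% (2 members, -0.24 and -0.095), where Gapdh had 0.77 (adjusted p = 0.286). Regulatory T-like cells, with 9 members tested since Hk2 fell under the filter, gave 0.0% called for AG against NO_AG, 0 members at an unadjusted p below 0.05 and medians of -0.19 over the members and 0.173 over all genes. Too few cells in AG_CPI kept regulatory T-like, dendritic epidermal T-like and ILC2-like cells out of the CPI comparisons.

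In dendritic epidermal T-like cells, a resident gamma-delta T cell of mouse epidermis, and in ILC2-like cells no member was called between AG and NO_AG, and the median difference moved by over 1.5 times with either AG mouse left out. For the former, 0.0% of all genes and 0 members were called, 0 members had an unadjusted p below 0.05 in limma, 9 of 10 had a difference below 0, and the medians were -0.428 over the members and -0.024 over all genes, with Tpi1 at -0.71 (adjusted p = 0.63) and Ldha at -0.56. Without AG 1 the median was -0.675 and 8 members were called beside 2013 of 7708 genes; without AG 2 it was -0.153 and 1 was called beside 498 of 7666. For ILC2-like cells 0.0137% of all genes and 0 members were called, 10 of 10 members had a difference below 0, and the medians were -0.338 and -0.044. Tpi1 was the 1 member with an unadjusted p below 0.05 (-0.78 ± 0.28, adjusted p = 0.927). Without AG 1 the ILC2-like median was -0.625 with 6 members called beside 739 of 6833 genes, and without AG 2 it was -0.061 with 0.

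Within CD8 T cells, cycling cells differed from non-cycling cells of the same mouse in 4 members, in a comparison that called 19.5% of all genes. After each cell was thinned to 1500 UMIs, cycling cells were those with at least 2 UMIs of cell cycle genes and non-cycling cells those with 0. Gapdh was higher in cycling cells in 6 of 6 mice (mean level 17.4 against 12.8, log2 difference 0.34 ± 0.06, limma, adjusted p = 0.00134), as were Tpi1 in 5 of 6 (0.42 ± 0.10, 0.00938) and Pkm in 6 of 6 (0.24, 0.0284). Aldoa was lower in 6 of 6 (-0.38, adjusted p = 0.0122). Hk2, at -0.47, was not called (0.109), and the medians were 0.134 over the members and -0.067 over all genes. The deposited scaling moved the called genes from 861 higher and 746 lower to 1015 and 517, and with no filter on low values 1 member was called, beside 9.09% of all genes. Cycling cells were deeper: the median was 3524 to 4967 UMIs in cycling and 2132.5 to 2719 in non-cycling cells over the 6 mice, and the part of depth in these differences was not tested. The call was lost in 5 of 12 alternatives for Pkm, among them the fits without AG 1, AG 2, AG_CPI 1 or AG_CPI 2, in 2 for Aldoa and in 1 for Tpi1. CD8 T cells with a UMI of Trbv13-3, a segment of the T cell receptor beta chain, were compared with those with another beta segment in the same mouse: 0.367% of all genes and 0 members were called, with Tpi1 the 1 member at an unadjusted p below 0.05 (0.33, adjusted p = 0.611) and medians of 0.127 and 0.007.

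Other genes of glucose metabolism and of the response to low oxygen were followed in 5 lists: 21 other glycolytic steps and isozymes, 14 genes of pyruvate and lactate handling, 14 regulators, 14 further hypoxia-inducible genes and 7 of the pentose phosphate branch. Macrophage-like cells were higher than CD8 T cells for 28 of the 54 genes tested and lower for 7, together 64.8%, near the 61.7% of all genes called. Slc16a3, a lactate exporter, had a mean level of 2.09 against 0.288 (log2 difference 2.80, limma, adjusted p = 3.1e-10), and Hk3, a hexokinase of myeloid cells, had 0 UMIs in CD8 T cells of the 4 mice and was at least 279-fold higher in macrophage-like cells (floor of 3 UMIs over the group). Bnip3 (2.35), Arrdc4 (2.40) and Pgd (1.93), an enzyme of the pentose phosphate branch, were higher too. The T cell glucose transporter Slc2a3 went the other way, at 0.0191 against 0.425 (-1.96).

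Against basal-like keratinocytes, CD8 T cells were higher for 10 and lower for 19 of 51 tested genes, together 56.9% beside 51.5% of all genes. Slc2a3 was higher (0.345 against 0.00513, log2 difference 2.08, limma, adjusted p = 1.89e-06), opposite to Slc2a1. The hypoxia-inducible genes Egln3 (-1.73), Ndrg1 (-2.01), Bnip3 (-1.57) and Higd1a (-1.19) were lower, and P4ha2 had 0 UMIs in CD8 T cells of the 3 mice, at least 36.6-fold lower. Suprabasal-like cells were higher than basal-like cells for 2 and lower for 9 of 48 tested genes (22.9% beside 20.2% of all genes). The lower ones included Slc16a3 (-1.94, adjusted p = 1.71e-05), P4ha1 (-1.54), Bnip3 (-1.51, not called with robust empirical Bayes), the phosphofructokinase Pfkp (-1.04), Txnip (-0.88), which restrains glucose uptake, and Hif1a (-0.84), a subunit of HIF-1. Cycling-like keratinocytes were higher for 4 and lower for 10 of 51 (27.5% beside 23.5%), with Ldhb (1.63, adjusted p = 7.54e-06) and Epas1 (1.17) higher and Bnip3 (-0.98), Bnip3l (-0.69), Pfkp (-0.65) and Gpi1 (-0.53) lower. Cycling CD8 T cells were lower for 5 of 50 and higher for 0 (10.0% beside 19.5% of all genes): Txnip (-0.92, adjusted p = 1.75e-05), Slc2a3 (-0.70), Aldoc (-0.69), Bnip3l (-0.42) and Gpi1 (-0.39). The call was lost in 4 of 12 alternatives for Slc2a3 (no filter, and without NO_AG 2, AG_CPI 1 or AG_CPI 2) and in 3 of 12 for Bnip3l (the deposited scaling, and without AG_CPI 1 or AG_CPI 2).

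Between groups, 2 genes of these lists were called, each as 1 of 48 tested (2.08%), beside 4.16% of all genes for Txnip, 1.26% for Egln3 against NO_AG and 0.0252% against AG. Txnip in CD8 T cells had a level of 1.36 and 1.77 (NO_AG mice), 1.32 and 1.00 (AG mice) and 0.778 and 0.830 (AG_CPI mice), so that both AG_CPI mice lay below the other 4. It fell by 0.81 ± 0.19 on the log2 scale from NO_AG to AG_CPI (limma, adjusted p = 0.0335), but the call was lost in 8 of 19 alternatives, and in 1 of these the difference was 0.168, without the cluster that held most NO_AG CD8 T cells. Egln3, an oxygen-sensing hydroxylase gene that HIF induces, was called in upper hair follicle-like keratinocytes, where its level was 1.41 and 2.26 (NO_AG mice), 0.794 and 0.51 (AG mice) and 0.016 and 0.0155 (AG_CPI mice). No 2 of the 3 groups overlapped. The AG_CPI value rests on 1 UMI in each mouse, in 78 and 74 cells, against 557 and 631 UMIs in 702 and 376 cells of NO_AG and 287 and 73 in 484 and 277 of AG. The pooled NO_AG level was 78.0 times that of AG_CPI (95% counting interval 21.6 to 645.0) and the AG level 31.8 times (8.74 to 264.0), intervals that cover counting error only. The adjusted p was 0.000264 for AG_CPI against NO_AG and 0.0176 against AG; the first call was lost in 1 of 17 alternatives, with no filter on low values, and the second in 8, among them the fits without AG 1, AG 2 or AG_CPI 1. In the upper hair follicle, 2 clusters were present in every mouse: 1 of them held 64.1% and 50.8% of the class in NO_AG, and the other 58.1% to 79.4% in AG and AG_CPI.

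Because Slc2a1 and Hk2 were low, the share of cells with at least 1 UMI was also taken after thinning every cell to 1500 UMIs. The Slc2a1 share had a median over mice of 20.7% in basal-like keratinocytes (20.4% to 20.8%), 13.4% in macrophage-like cells (11.4% to 14.9%), 7.55% in suprabasal-like cells (3.23% to 12.0%) and 4.88% in CD8 T cells (2.74% to 7.49%). Among these classes the basal-like range overlapped no other, while the suprabasal-like range overlapped those of macrophage-like and CD8 T cells. Cycling-like and stress keratin-like keratinocytes, whose Slc2a1 levels overlapped the basal-like range, are not among them. The Hk2 share was 10.7% in macrophage-like cells (6.21% to 14.4%), 4.82% in suprabasal-like cells (2.03% to 12.0%), 1.89% in basal-like cells (1.51% to 3.04%) and 1.36% in CD8 T cells (0.787% to 2.24%). By mouse, the macrophage-like Hk2 share was 6.21% and 7.89% (AG mice) and 13.6% and 14.4% (AG_CPI mice). No class is known to lack either gene, so the level that free RNA gives could not be measured.

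**Figure D4:**
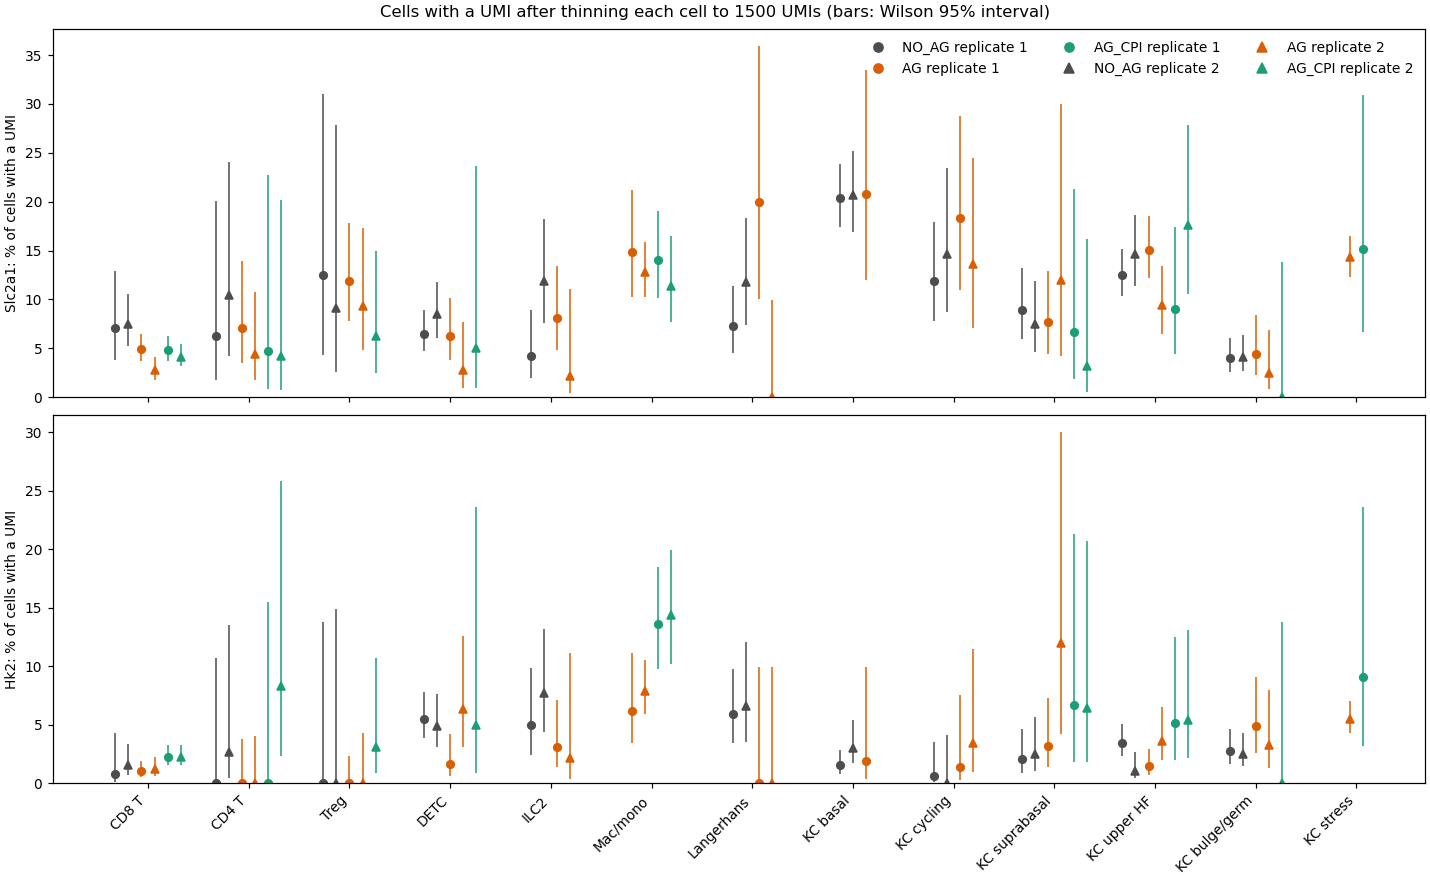
Percent of cells with at least 1 UMI of Slc2a1 or Hk2 after thinning to 1500 UMIs per cell, by class and mouse, with Wilson 95% intervals for counting error. The Slc2a1 share is 20.4% to 20.8% in basal-like keratinocytes and at most 7.49% in CD8 T cells, and the macrophage-like Hk2 share is higher in the 2 AG_CPI mice (13.6% and 14.4%) than in the 2 AG mice.

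Over the 60 profiles of a class in a mouse (13 classes), 8 members followed the mean of the others more closely than the 2 entry genes did. The Pearson correlation of a member with the mean of the other 9 was 0.901 for Pkm, 0.889 for Ldha, 0.888 for Pgk1, 0.841 for Tpi1, 0.812 for Aldoa, 0.798 for Eno1, 0.783 for Pgam1 and 0.745 for Gapdh. It was 0.233 for Slc2a1 and -0.06 for Hk2, although Slc2a1 had 0.494 with Pgam1 and 0.351 with Tpi1. For comparison, Gapdh had 0.522 with Pgam1 and 0.927 with Eno1. Among 1295 other genes with a mean level of at least 1, the closest to the mean of the 10 members were Ass1 (0.832), Cib1 (0.703), Prelid1 (0.702), Sod2 (0.694) and Ndufv3 (0.688). Profiles of 1 mouse share a library and a depth, so these correlations describe the profiles and carry no test. Single mice also had their own pattern: in the 4 classes with all 6 mice, Aldoa was highest in AG 1 in 4 of 4, and Gapdh was lowest in NO_AG 2 in 4 of 4 and highest in AG_CPI 1 in 3 of 4.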

How the data were processed

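The values the authors deposited are log10 of 1 plus a gene's UMIs per 10000 UMIs of the cell; the unit follows from the values themselves, as headers do not name it. Cell Ranger 3.1 and build mm10 are named in the submitters' processing notes. Values were inverted (10 to the value, minus 1). Of 16158 columns, 8 symbols had a pair of columns, Aldoa among them (79555 and 48 UMIs), and were summed. Cells with fewer than 200 genes or over 20% mitochondrial UMIs, and called doublets, were removed. Clustering used scanpy 1.11.5 (2000 variable genes, 30 components, 15 neighbours, Leiden resolution 1, 51 clusters) with 80 list genes kept out. The rule that names clusters was the fourth tried, settled with their leading genes and cell numbers in view and ahead of all tests; another rule could move cells between keratinocyte states. Levels were scaled by trimmed means of M-values and tested as log2(level + 0.1) with limma 3.58.1 in R 4.3.3, on genes with a mean of at least 0.1 in at least 2 libraries, with a class used at 20 or more cells per mouse. The fit was also run on simulated profiles, with noise drawn apart for each gene and mouse and no shift shared by the genes of a mouse. Those runs therefore do not cover differences that rest on single mice. Mice are the replicates; with 2 against 2 an exact permutation test of 1 value cannot go below p = 0.333, so the fit across all genes was used. Same-numbered mice of different groups share only a number. The members and the lists were chosen with earlier results of these data known. Named genes are all 10 members, the called genes of the wider lists up to the 6 with the smallest p per comparison, and the 5 genes closest to the members' mean. Eno1 can share reads with Eno1b, so its level is uncertain. Intervals on shares cover counting error only. Alternatives tried are the pseudocount, scaling, filter, doublets, cluster resolution, recovered UMIs, thinning, robust empirical Bayes, only the 2 groups compared, a CD8 gate without Trdc cells, each mouse left out and a replicate block. After seeing the data, fits without CD8 T cluster 9, without keratinocyte cluster 8 and with all epithelial clusters as keratinocytes were added.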

Additional observations from a re-analysis of the deposited data

How the results depend on the processing

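Over the alternatives, the values of the called genes named here and of members at an unadjusted p below 0.05 kept their direction and their side of the threshold in 1632 cases, lost the call in 50 and gained it in 30, and 1 reversed: Txnip in CD8 T cells, AG_CPI against NO_AG, was 0.168 without the cluster that held most NO_AG cells. For the members neither called nor at such a p, 241 of 3375 values changed sign, Slc2a1 in CD8 T cells (0.239 for the same comparison and alternative, on 18 UMIs in NO_AG) among them. Egln3 in upper hair follicle-like cells, AG_CPI against AG, lost its call in 8 alternatives. The count of members called between groups, 0 in the main analysis, was 1 for CD8 T cells, AG_CPI against NO_AG, with only the groups compared in the fit, and 0 to 1 with each mouse left out in turn. Over mice left out it was 0 to 8 for dendritic epidermal T-like cells, 0 to 6 for ILC2-like cells, 0 to 4 for macrophage-like cells, 0 to 1 for upper hair follicle-like cells (AG_CPI against NO_AG), 0 to 7 for cycling-like keratinocytes, and 0 to 5 (AG against NO_AG) and 0 to 2 (AG_CPI against NO_AG) for the difference between CD8 T and keratinocyte-like cells; the last was also 2 with only the groups compared. Where a group was left with 1 mouse, it is assumed to vary like the other groups, and fewer mice left fewer degrees of freedom; the cause of these changes was not tested. Of the 51 differences of members between groups at an unadjusted p below 0.05, 22 moved by over 1.5 times with at least 1 mouse left out. The replicate block gave 1 call (Gapdh, 1.33) for suprabasal-like cells, AG_CPI against NO_AG, where there was 0, and moved no other count of members by over 1.5 times; same-numbered mice did not deviate together (correlations of -0.228 to 0.042). Between classes, the count was 3 to 8 over mice left out for suprabasal-like against basal-like cells (13.4% to 26.0% of all genes), 1 to 6 for cycling-like against basal-like cells (16.7% to 33.3%), and 1 for cycling CD8 T cells with no filter. At the cells' own depth the median shares with a UMI were, for Slc2a1, 8.71% in CD8 T, 38.5% in macrophage-like, 49.1% in basal-like and 23.7% in suprabasal-like cells, and for Hk2 3.23%, 27.2%, 5.66% and 11.9%. Depth limits the genes of low level: Hk2 in regulatory T-like cells was seen after thinning in 0 of 24, 0 of 22, 0 of 160, 0 of 86 and 2 of 64 cells.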
